A study of Saccharomyces cerevisiae with 6 samples.

Results

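Budding yeast surrounds itself with a wall of glucan, mannoprotein and chitin and watches over it through the cell wall integrity pathway. Here 7 genes of that system were followed: the wall stress sensor genes WSC2, WSC3 and MID2, the MAP kinase gene SLT2, the transcription factor gene RLM1, and the glucan synthase genes FKS1 and GSC2. They were chosen by gene symbol in the platform's table of spots and genes, with earlier results of these data known. Each of the 7 stood on 1 spot, out of 5490 named genes on 5523 named spots and 6084 spots in all. Their systematic names are YNL283C (WSC2), YOL105C (WSC3), YLR332W (MID2), YHR030C (SLT2), YPL089C (RLM1), YLR342W (FKS1) and YGR032W (GSC2).

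The sensors are membrane proteins with mannosylated outer parts that respond to strain on the wall. They act through the exchange factor Rom2 on the GTPase Rho1, which switches on Pkc1 and, below it, a kinase cascade of Bck1, Mkk1 and Mkk2, and Slt2. Slt2 phosphorylates Rlm1, which drives genes for wall proteins and wall-modifying enzymes and also SLT2 itself. Rho1 is in addition a subunit of the glucan synthase, whose catalytic subunit is made from FKS1 during growth on glucose and from GSC2, also known as FKS2, under stress, on poorer carbon sources and in spore formation. GSC2 is known to be induced through calcineurin and its transcription factor Crz1 as well as through Slt2.

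Transcripts were compared between 3 strains, all labelled as minus iron and grown exponentially: the double mutant Y18aft2delta (aft1aft2), the aft1 mutant Y18 (aft1), and their reference CM3260 (wt). Aft1 and Aft2 are the transcription factors that turn on iron uptake when iron is short, and the double mutant carries the aft1 mutation of Y18. The labels do not say which part of either gene was removed or whether the strains carry other differences. Total RNA was reverse-transcribed and hybridised to GeneFilters membranes, and the 6 samples are the 3 strain comparisons in experiments 1 and 2. The protocol speaks of duplicate hybridisations on separate membranes and of no separate cultures, and the spread behind each p-value may therefore be technical. In bulk RNA, fewer cells of a kind and less RNA per cell cannot be told apart.

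Each value is a log ratio of 1 spot between 2 strains, taken as log2 because its base is not stated, turned to mutant minus reference and centred on the median of its column. The direction is likely rather than stated. It follows the order of strains in the titles, and with it 11 of 11 uptake genes known to depend on Aft1 lay below 0 in aft1 against wt and 11 of 11 in aft1aft2 against wt. The opposite order would turn every sign below and leave sizes as they are. The 3 ratios of an experiment closed within 0.01 at all 6084 spots. They thus come from 1 value per strain and experiment, which the comparisons share. Each of these 6 values, 2 per strain, is called a hybridisation here. Whether such a value is a mean of several membranes is not known. Changes are given as mean ± SE from a limma fit over all spots (n = 2 hybridisations per strain), with p-values adjusted over 6084 spots by the Benjamini-Hochberg method and a threshold of 0.05. The SD of strain levels over spots was between 0.347 and 0.421 in 5 hybridisations and 0.512 in aft1aft2 replicate 2. The AFT1 and AFT2 spots do not check the labels. AFT1 was 0.03 ± 0.25 in aft1 against wt and AFT2 0.78 ± 0.54 in aft1aft2 against wt (limma adjusted p = 0.970 and 0.441). AFT2 differed between experiments 1 and 2, at -0.40 and 1.96 in aft1aft2 against wt and 0.21 and 2.00 against aft1.

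GSC2 was low in both mutants, while the other 6 genes passed the test in neither. In aft1 against wt 1 of the 7 genes passed, and it was lower, beside 1.46% of all spots called in either direction and 0.625% called lower. In aft1aft2 against wt 1 of 7 passed, again GSC2 and again lower, beside 4.44% of spots called in either direction and 3.71% called lower. In aft1aft2 against aft1 limma called 0 of 7, beside 2.83% of spots in either direction and 2.60% lower. At an unadjusted p under 0.05, 3 of 7 passed in aft1 against wt (WSC3, SLT2 and GSC2) beside 15.4% of spots. By the same rule 2 of 7 passed in aft1aft2 against wt (SLT2 and GSC2) beside 21.4%, and 1 of 7 in aft1aft2 against aft1 (WSC3) beside 22.6%. The medians of the 7 changes were 0.17, -0.13 and -0.29 in these 3 comparisons, beside 0.01, 0.02 and 0.03 over all spots. Because the 7 were chosen with earlier results of these data known, their counts beside these shares are a description and not a test. The same holds for the gene lists below.

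**Figure D1:**
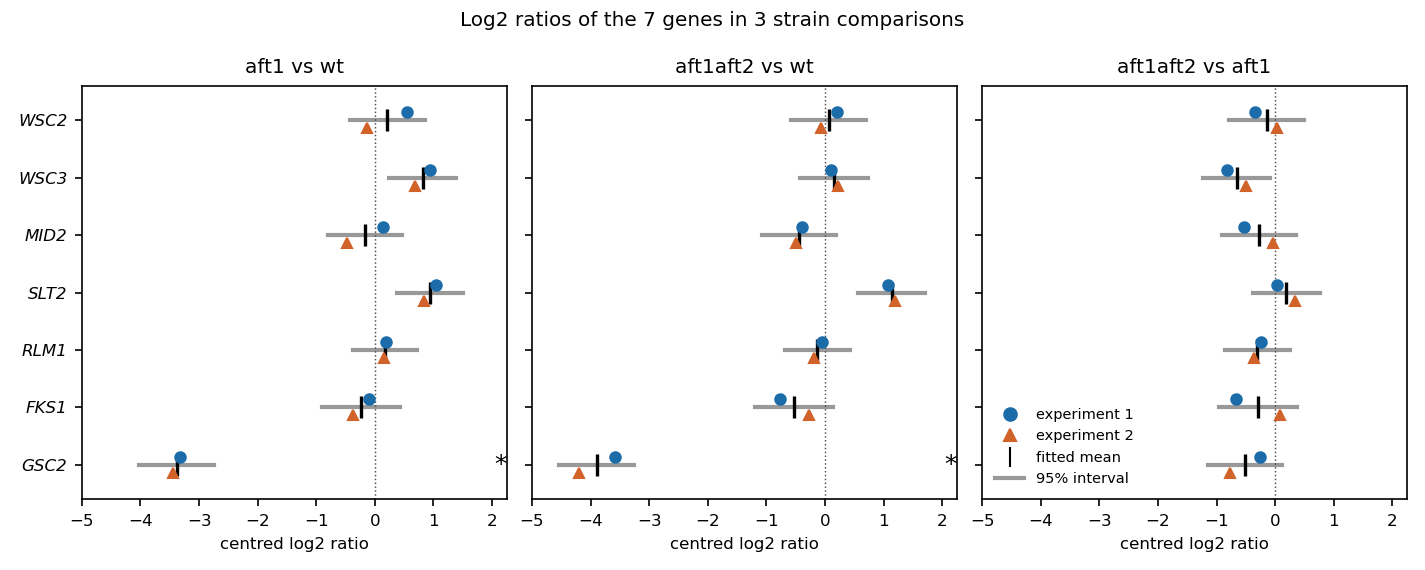
Centred log2 ratios (horizontal axis) of the 7 genes in the 3 comparisons, with circles for experiment 1, triangles for experiment 2, black ticks for the fitted mean, grey bars for its 95% interval and an asterisk where the adjusted p was under 0.05. GSC2 lies between -4.21 and -3.32 in both comparisons with wt, and the other genes lie between -0.77 and 1.20 there.

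Among the sensors, WSC3 stood highest in aft1. Its centred log2 ratio was 0.94 and 0.69 in experiments 1 and 2 of aft1 against wt, with a mean of 0.82 ± 0.24 that did not pass (95% interval 0.24 to 1.39, limma adjusted p = 0.170). WSC3 in aft1aft2 against wt was 0.10 and 0.22, a mean of 0.16 ± 0.24 (interval -0.42 to 0.73, adjusted p = 0.735). The direct comparison of aft1aft2 with aft1 gave -0.83 and -0.49, or -0.66 ± 0.24 (interval -1.23 to -0.08, adjusted p = 0.181). Expressed relative to the mean of the 3 strains in an experiment, its log2 level was -0.24 and -0.09 in aft1aft2, 0.59 and 0.39 in aft1, and -0.35 and -0.30 in wt. The aft1 hybridisations were thus the highest of both experiments, an order not counted over all spots. The interval of aft1aft2 against wt included 0. Without the experiment term WSC3 passed in aft1 against wt (adjusted p = 0.0283) and in aft1aft2 against aft1 (adjusted p = 0.0382), in a fit that counts too many degrees of freedom.

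WSC2, a close relative of WSC3, passed in no comparison. The WSC2 spot was 0.55 and -0.13 in aft1 against wt, opposite signs with a mean of 0.21 ± 0.26 (interval -0.43 to 0.85, adjusted p = 0.758). For aft1aft2 against wt it was 0.21 and -0.08, or 0.07 ± 0.26 (interval -0.57 to 0.70, adjusted p = 0.906). In aft1aft2 against aft1 its values were -0.34 and 0.04, or -0.15 ± 0.26 (interval -0.79 to 0.49, adjusted p = 0.771). Within the columns of aft1 against wt, WSC3 exceeded WSC2 by 0.39 and 0.82, and within those of aft1aft2 against wt by -0.11 and 0.29, a difference between genes that was not tested.

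MID2, the sensor needed to survive prolonged exposure to mating pheromone, stayed close to the typical spot. Its ratio was 0.13 and -0.48 in aft1 against wt, with a mean of -0.17 ± 0.26 (interval -0.81 to 0.46, adjusted p = 0.810). Both experiments of aft1aft2 against wt lay below 0, at -0.40 and -0.50, with a mean of -0.45 ± 0.26 (interval -1.08 to 0.18, adjusted p = 0.360). Between the mutants MID2 was -0.53 and -0.03, or -0.28 ± 0.26 (interval -0.91 to 0.36, adjusted p = 0.565). With the values as deposited MID2 turned to 0.09 in aft1 and 0.07 in aft1aft2 against wt, since without centring every spot moves up alike.

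The other sensor genes set MID2 and the WSC pair in context. MTL1, the paralogue of MID2, fell to -4.42 and -4.53 in aft1 against wt, a mean of -4.47 ± 0.25 (adjusted p = 0.00290). MTL1 in aft1aft2 against wt was -5.34 and -5.87, or -5.60 ± 0.25 (adjusted p = 0.000703). The log2 ratio of MTL1 minus that of MID2 was -4.55 and -4.05 in the columns of aft1 against wt and -4.94 and -5.37 in those of aft1aft2 against wt. SLG1, which encodes the main sensor Wsc1, had values against wt of 0.28 ± 0.23 in aft1 and -0.04 ± 0.23 in aft1aft2 (adjusted p = 0.615 and 0.932). WSC4 was -0.64 ± 0.31 and -0.61 ± 0.31 in the same comparisons (adjusted p = 0.377 and 0.316). Of the 6 sensor genes on the membranes MTL1 alone passed limma's test in either mutant against wt, and 0 passed between the mutants, where MTL1 and WSC3 were lower at an unadjusted p under 0.05. MTL1 was -0.91 and -1.35 in aft1aft2 against aft1, a mean of -1.13 ± 0.25 (adjusted p = 0.0783), and passed in 2 of 13 alternatives, without the experiment term (adjusted p = 0.0161) and without aft1aft2 replicate 1 (-1.37, adjusted p = 0.0431). Whether the MTL1 spot reads other transcripts was not examined here.

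SLT2 lay above the median spot in both mutants, short of the test's threshold. The kinase gene was 1.04 and 0.84 in aft1 against wt, with a mean of 0.94 ± 0.24, or 1.92-fold (interval 0.37 to 1.51, adjusted p = 0.126). In aft1aft2 against wt it was 1.08 and 1.20, with a mean of 1.14 ± 0.24, or 2.20-fold (interval 0.57 to 1.70), which just missed the threshold (adjusted p = 0.0544). Its log2 level relative to the mean of the 3 strains was 0.37 and 0.51 in aft1aft2, 0.33 and 0.17 in aft1, and -0.71 and -0.68 in wt. The wt level was the lowest in both experiments, an order whose share over all spots was not counted. The mutants did not differ by a test, at 0.04 and 0.34 or a mean of 0.19 ± 0.24 (interval -0.38 to 0.76, adjusted p = 0.666). Without the experiment term SLT2 also passed in aft1 against wt (adjusted p = 0.0178). The outcome in aft1aft2 against wt depended on the setting. It passed when only named spots were tested (adjusted p = 0.0494), without aft1aft2 replicate 1 (adjusted p = 0.0494) and without the experiment term (adjusted p = 0.00775), in 3 of 13 alternatives with adjusted p-values from 0.00775 to 0.18.

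RLM1, whose product is activated by Slt2 through phosphorylation, had the smallest spread of the 7, with a residual SD of 0.0515, at the 3.73rd percentile of all spots. Its ratio was 0.19 and 0.15 in aft1 against wt, or 0.17 ± 0.23 (interval -0.38 to 0.73, adjusted p = 0.775). In aft1aft2 against wt it was -0.06 and -0.20, or -0.13 ± 0.23 (interval -0.68 to 0.42, adjusted p = 0.773). Between the mutants it was -0.25 and -0.36, or -0.30 ± 0.23 (interval -0.86 to 0.25, adjusted p = 0.472). The RLM1 level was highest in aft1 and lowest in aft1aft2 in both experiments, with differences that did not pass the test. How many of all spots keep the same order of strains in both experiments was not counted.

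**Figure D2:**
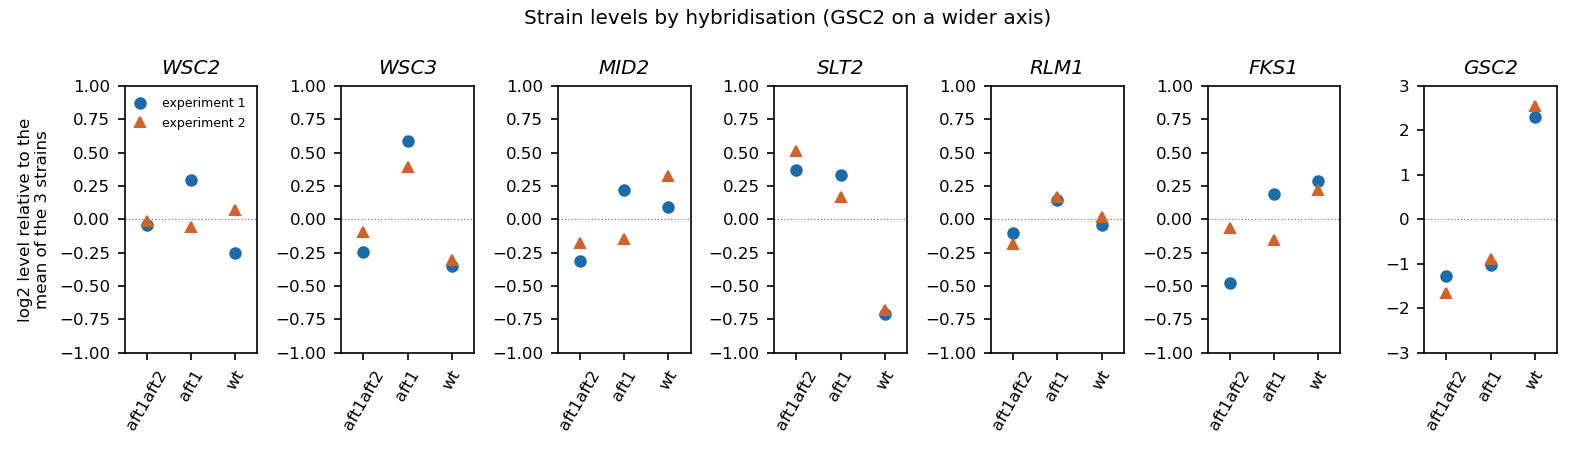
Log2 level of each gene in each strain relative to the mean of the 3 strains of the same experiment (vertical axis, wider for GSC2), with circles for experiment 1 and triangles for experiment 2. GSC2 is between -1.66 and -0.89 in the mutants and at 2.30 and 2.55 in wt, SLT2 is lowest in wt, and WSC3 is highest in aft1.

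FKS1 and GSC2 encode close relatives that serve as alternative catalytic subunits of the same enzyme, and their spots behaved differently. GSC2 was -3.32 and -3.45 in aft1 against wt, with a mean of -3.38 ± 0.26, or 10.4-fold lower (95% interval 6.71-fold to 16.2-fold, limma adjusted p = 0.00674). In aft1aft2 against wt it was -3.58 and -4.21, with a mean of -3.90 ± 0.26, or 14.9-fold lower (interval 9.57-fold to 23.1-fold, adjusted p = 0.00284). In both comparisons it ranked as number 8 from the lowest of the 6084 spots. Between the mutants GSC2 was -0.26 and -0.77, with a mean of -0.51 ± 0.26 that did not pass (interval -1.15 to 0.12, adjusted p = 0.308). The log2 level of GSC2 relative to the 3 strains was -1.28 and -1.66 in aft1aft2, -1.02 and -0.89 in aft1, and 2.30 and 2.55 in wt, so the wt hybridisations stood far above all 4 of the mutants. The call in aft1 against wt was lost without aft1 replicate 1 (-3.29, adjusted p = 0.0657) and without aft1 replicate 2 (-3.48, adjusted p = 0.0656), where 7 and 4 of all spots passed in place of 89, while in aft1aft2 against wt GSC2 passed in 13 of 13 alternatives.

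FKS1 was -0.10 and -0.38 in aft1 against wt, with a mean of -0.24 ± 0.27 (interval -0.90 to 0.43, adjusted p = 0.737). In aft1aft2 against wt it was -0.77 and -0.28, or -0.53 ± 0.27 (interval -1.19 to 0.14, adjusted p = 0.326), and between the mutants -0.67 and 0.09, or -0.29 ± 0.27 (interval -0.95 to 0.38, adjusted p = 0.570). Its intervals against wt do not reach the falls of GSC2. The log2 ratio of GSC2 minus that of FKS1 was -3.22 and -3.07 in the columns of aft1 against wt and -2.81 and -3.93 in those of aft1aft2 against wt. The related gene FKS3 was 0.00 ± 0.27 and 0.64 ± 0.27 in those comparisons (adjusted p = 0.998 and 0.238). SMI1, whose product helps to regulate glucan synthesis, was -0.99 ± 0.25 and -0.73 ± 0.25 (adjusted p = 0.134 and 0.171). The FKS1 and GSC2 sequences are similar, so part of each spot's signal may come from the other transcript, which was not tested.

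**Figure D3:**
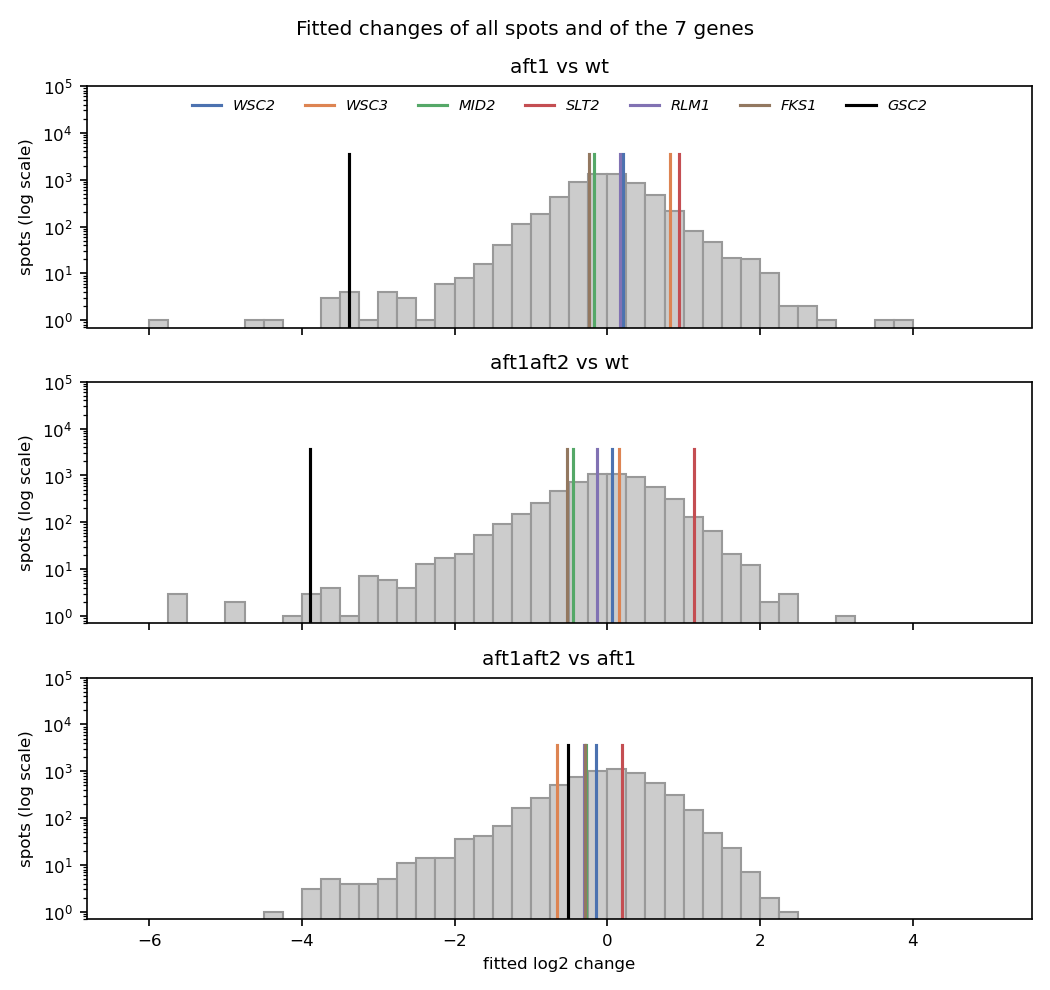
Number of spots (vertical log axis) by fitted log2 change (horizontal axis, in steps of 0.25) in the 3 comparisons, with coloured lines at the 7 genes. GSC2 lies at -3.38 in aft1 and -3.90 in aft1aft2 against wt, outside the range that holds 90% of spots (-0.83 to 0.85 and -1.12 to 0.92), and at -0.51 between the mutants.

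The spots whose 6 centred ratios were closest to those of GSC2 were OSW7, RFM1 and FET3, at Euclidean distances of 0.63, 0.70 and 0.87 log2 units. Over all named spots the median distance was 7.50 and the 1st percentile 4.59. The 3 spots were picked as the smallest distances, so that they lie below both was fixed in advance. Whether they share regulation with GSC2 was not tested. Against wt OSW7 stood at -3.63 ± 0.24 in aft1 and -3.83 ± 0.24 in aft1aft2, RFM1, which encodes a partner of the Sum1 repressor of sporulation genes, -3.54 ± 0.28 and -3.67 ± 0.28, and the iron oxidase gene FET3 -3.43 ± 0.25 and -3.49 ± 0.25. In aft1 against wt OSW7 did not pass without aft1 replicate 2 (adjusted p = 0.0601), nor RFM1 and FET3 without either aft1 hybridisation (0.0607 to 0.0656). In the R64 gene table GSC2 and MTL1 both lie on chromosome VII. Of the 5 spots within 3 genes on either side of GSC2, looked at after their values were seen, IMO32 was -1.75 and -3.30 in aft1 against wt, a mean of -2.52 ± 0.40 that passed (adjusted p = 0.0460). Its values in aft1aft2 against wt were -2.39 and -3.72, a mean of -3.05 ± 0.40 that passed (adjusted p = 0.0199). Experiment 2 was the lower in both comparisons. Without wt replicate 1 IMO32 was -3.24 in aft1 and -3.77 in aft1aft2, and without wt replicate 2 it was -1.81 and -2.34. POP6, TIM21, RPL26B and YGR035C lay between -0.62 and 0.66 in aft1 and between -0.06 and 1.14 in aft1aft2 against wt, none past the test. IMO32 lost its calls with the values as deposited (adjusted p = 0.0973 and 0.0654), in aft1 against wt also in the fit of that comparison's own columns (0.0818) and without wt replicate 2, aft1 replicate 1 or aft1 replicate 2 (0.0778, 0.182 and 0.439), and in aft1aft2 against wt without aft1aft2 replicate 2 (0.0563). The 5 spots within 3 genes of MTL1 lay between -0.52 and 0.29 against wt, none past the test.

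Genes of calcineurin signalling, which is known to induce GSC2, were examined beside it. Of 11 genes of calcineurin and its targets, GSC2 included, 1 fell in aft1 against wt and 1 in aft1aft2 against wt, GSC2 in each case, and their medians were 0.22 and -0.11. By sign 7 of the 11 lay above 0 and 4 below in aft1, and 5 above and 6 below in aft1aft2. At an unadjusted p under 0.05, 2 were higher in aft1 against wt, CMP2 at 0.78 and PMC1 at 0.75 (adjusted p = 0.188 and 0.198). By that rule 1 was higher in aft1aft2 against wt, RCN2 at 0.91 and 2.15, a mean of 1.53 ± 0.35 (adjusted p = 0.0743). Over all spots 15.4% and 21.4% passed it in these comparisons, in either direction. The unadjusted counts of this paragraph are to be read beside these shares. Of 8 sporulation genes limma called 0 in either comparison, with 1 higher at an unadjusted p under 0.05 in each and medians of 0.06 and 0.33. Markers of the alpha mating type all lay below 0 in both mutants. Of these 1 of 4 fell in aft1 against wt (range -1.85 to -0.59) and 4 of 4 in aft1aft2 against wt (range -2.85 to -1.34). Of all spots 0.625% and 3.71% were called lower in these comparisons. Of the 7 a-type markers limma called 0 in either comparison, with 1 lower and 0 higher at an unadjusted p under 0.05 in aft1 and 1 lower and 3 higher in aft1aft2 against wt (ranges -1.54 to 0.42 and -1.26 to 0.94). The part of mating type in the GSC2 result was not tested.

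Calls along the rest of the pathway were few, as they were over the membranes. Limma called 1.46% of all spots for aft1 and 4.44% for aft1aft2, each against wt, and 2.83% between the mutants. The shares with an unadjusted p under 0.05 were 15.4%, 21.4% and 22.6%. With lists this short, low counts beside such shares do not show that the pathway was quiet. Of 7 Rho1 regulators on named spots 0 passed in aft1 against wt, with 1 lower at an unadjusted p under 0.05, and 1 rose in aft1aft2 against wt. This was BAG7, which encodes a GTPase-activating protein for Rho1, at 1.33 ± 0.25 (adjusted p = 0.0436). The call was lost with the values as deposited (adjusted p = 0.0602), in the fit of the comparison's own columns (0.0678), and without either wt hybridisation, either aft1 hybridisation or aft1aft2 replicate 2 (0.104 to 0.136). RHO1 itself was not analysed here. Of 10 kinases and phosphatases, SLT2 included, 0 passed in any comparison, with 1 higher at an unadjusted p under 0.05 in each mutant against wt, which was SLT2. PKC1 had a change of 0.43 ± 0.25 in aft1 against wt and one of 0.45 ± 0.25 in aft1aft2 (adjusted p = 0.468 and 0.356), and BCK1 -0.18 ± 0.25 and -0.40 ± 0.25 (adjusted p = 0.793 and 0.391). Beside RLM1, the other transcription factor genes SWI4 and SWI6 lay between -0.22 and 0.56 against wt and did not pass.

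Genes known as targets of Rlm1, a list of 12 that holds SLT2, had a higher median in aft1 against wt than in aft1aft2 against wt. Against wt 2 rose and 1 fell in aft1, with a median of 0.81, beside 0.01 over all spots. Against wt 1 rose and 4 fell in aft1aft2, with a median of -0.21 beside 0.02. In aft1aft2 against aft1 4 fell and 0 rose, with a median of -0.89 beside 0.03. Of all spots 1.46%, 4.44% and 2.83% were called in these 3 comparisons, and 0.625%, 3.71% and 2.6% called lower. At an unadjusted p under 0.05, 7 of the 12 were higher and 1 lower in aft1 against wt. By that rule 2 were higher and 4 lower in aft1aft2 against wt, and 0 higher and 7 lower between the mutants. It passed 15.4%, 21.4% and 22.6% of all spots, in either direction. The wall proteins HSP150 (Pir2) and SED1 were 2.03 ± 0.24 and 2.01 ± 0.23 in aft1 against wt (adjusted p = 0.0246 for each). The aft1aft2 values against wt were -1.33 ± 0.24 for HSP150 (adjusted p = 0.0371) and for SED1 -0.26 ± 0.23 (adjusted p = 0.554), and the direct test between the mutants gave -3.36 ± 0.24 and -2.27 ± 0.23 (adjusted p = 0.00317 and 0.00855). PIR1 and CIS3, of the same family as HSP150, fell in aft1aft2 against wt to -1.30 ± 0.25 and -1.69 ± 0.24 (adjusted p = 0.0436 and 0.0238) and against aft1 to -1.99 ± 0.25 and -1.72 ± 0.24 (adjusted p = 0.0153 and 0.0223). The mannoprotein gene CWP1 fell in both mutants, to -1.50 ± 0.24 in aft1 and -1.55 ± 0.24 in aft1aft2 (adjusted p = 0.0457 and 0.0259), and PRM5 rose to 1.52 ± 0.27 in aft1aft2 against wt (adjusted p = 0.0367). Genes of the PIR family are similar in sequence, so their spots may share signal, which was not tested.

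**Figure D4:**
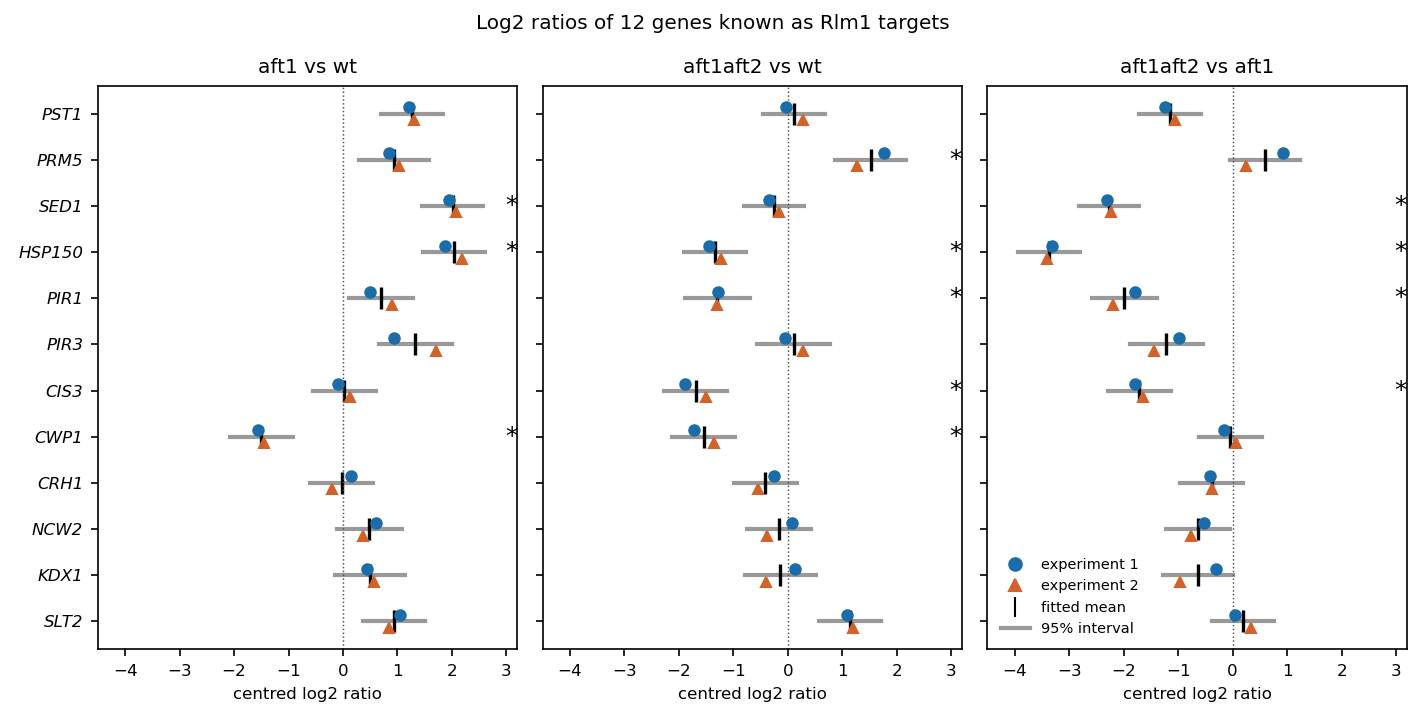
Centred log2 ratios (horizontal axis) of 12 genes known as Rlm1 targets in the 3 comparisons, drawn with circles for experiment 1, triangles for experiment 2, black ticks for the fitted mean, grey bars for its 95% interval and an asterisk where the adjusted p was under 0.05. HSP150 and SED1 stand at 2.03 and 2.01 in aft1 against wt, and HSP150, SED1, PIR1 and CIS3 lie between -3.36 and -1.72 in aft1aft2 against aft1.

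Several of these calls were lost under other settings or with a hybridisation fewer, while the changes kept their direction and moved by less than 1.5-fold. With the values as deposited the calls of CWP1 in both mutants (adjusted p = 0.119 in aft1 and 0.0777 in aft1aft2) and of HSP150, CIS3 and PIR1 in aft1aft2 against wt (0.0873, 0.0714 and 0.0884) were lost, as were those of CIS3 and PIR1 between the mutants (0.0917 and 0.0536). HSP150 and SED1 in aft1 against wt did not pass without aft1 replicate 1 (2.13 and 2.03, adjusted p = 0.232 each), aft1 replicate 2 (1.93 and 2.00, 0.320 each) or wt replicate 2 (1.90 and 1.93, 0.0635 and 0.0620). The SE of both was 0.42 without either aft1 replicate. CWP1 in aft1 did not pass without any 1 of the wt and aft1 hybridisations (-1.62 to -1.38, adjusted p = 0.115 to 0.532) or in the fit of that comparison's own columns (0.0610). Among aft1aft2 calls against wt HSP150, PIR1 and CWP1 passed without aft1aft2 replicate 1 but did not when any other hybridisation was left out (0.0502 to 0.136), and HSP150 and PIR1 did not in the fit of the comparison's own columns (0.0702 and 0.0767), PRM5 only without aft1aft2 replicate 2 (otherwise 0.0502 to 0.0980), and CIS3 did not pass without wt replicate 1 or either aft1 hybridisation (0.0639 to 0.0686). Between the mutants HSP150 passed without each hybridisation in turn, while SED1, CIS3 and PIR1 did not without aft1 replicate 1 (0.107, 0.216 and 0.117) or aft1 replicate 2 (0.144, 0.315 and 0.271).

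Enzymes that remodel glucan formed a list of their own. Of 14 such genes on named spots, UTR2, a crosslinker of chitin to glucan, fell in aft1 against wt to -1.55 ± 0.24 (adjusted p = 0.0411) and in aft1aft2 against wt to -1.93 ± 0.24 (adjusted p = 0.0163). Between the mutants 3 fell in aft1aft2 against aft1: SKN1 to -1.83 ± 0.32, KRE9 to -1.62 ± 0.23 and BGL2 to -1.49 ± 0.24 (adjusted p = 0.0446, 0.0231 and 0.0333). The medians of the 14 were -0.01 in aft1 and -0.65 in aft1aft2 against wt, and -0.38 between the mutants. Over all spots they were 0.01, 0.02 and 0.03. At an unadjusted p under 0.05, 2 were higher and 2 lower in aft1 against wt, and 0 higher and 8 lower in aft1aft2 against wt. Between the mutants 1 was higher and 5 lower. By that rule 15.4%, 21.4% and 22.6% of all spots passed in either direction. Of 8 chitin synthesis genes limma called 0 in each comparison, with 1 higher at an unadjusted p under 0.05 in aft1 against wt, 1 higher and 2 lower in aft1aft2 against wt, and 2 lower in aft1aft2 against aft1. With the values as deposited UTR2 lost both calls (0.105 and 0.0702), and SKN1, KRE9 and BGL2 lost theirs (0.118, 0.0903 and 0.0917). UTR2 in aft1 did not pass without any 1 of the wt and aft1 hybridisations (-1.71 to -1.40, adjusted p = 0.0915 to 0.456) or in the fit of that comparison's own columns (0.0610), and BGL2 did not in the fit of its own columns (0.0627). SKN1, KRE9 and BGL2 did not pass without aft1 replicate 1 (0.296, 0.223 and 0.228), aft1 replicate 2 (0.266, 0.352 and 0.467) or aft1aft2 replicate 2 (0.111, 0.0550 and 0.0833).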

How the data were processed

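The values the authors deposited are log ratios of spots between strains, taken as log2. Per the labels, membranes were read by phosphor imaging and quantified with PATHWAYS 3, whereas the sources used here give neither normalisation nor log base nor spot sequences. The table held 6084 spots with 0 missing values, and 0 columns were left unused. Spots were named through the platform table (5523 with 1 symbol, 0 with several, 561 with none), updated by gene ID to the R64 gene table, where 100% matched.

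Columns were turned to mutant minus reference and centred on their medians. Least squares turned the 3 closing ratios of an experiment into strain levels. A model with strain and experiment was then fitted over all spots (limma 3.58.1, R 4.3.3, 2 residual degrees of freedom, two-sided, Benjamini-Hochberg). The experiment is thus a replicate block, because ratios exist within an experiment alone. The code was tested on simulated data. No spot intensities were used here, so detection above background is unknown, and the number of arrays limits the precision.

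The 7 genes and all gene lists were chosen with earlier results of these data known. Named are the 7 genes, all sensors and glucan synthases, genes of the wall lists past the test, and for each of the 7 past the test its 3 closest spots. PKC1, BCK1, SWI4, SWI6, CMP2, PMC1, RCN2 and the gene-order neighbours were added after their values were seen. Alternatives were another centring, scaling or normalisation, no experiment term, each comparison's own columns, robust empirical Bayes, named spots alone, and leaving out each hybridisation or experiment.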

Additional observations from a re-analysis of the deposited data

Results flagged for a closer look

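For 7 wall genes the change against wt differed between the mutants, by limma's test of aft1aft2 against aft1 over all spots. That test called 2.83% of all spots, and 2.60% as lower. The search covered the 7 genes followed and all lists but the uptake and mating-type genes. It found 4 of 12 Rlm1 targets, 3 of 14 genes of glucan remodelling and beta-1,6-glucan synthesis, and 0 in the other lists. HSP150 differed by -3.36, SED1 by -2.27, PIR1 by -1.99 and CIS3 by -1.72 on the log2 scale. SKN1, which encodes a protein of beta-1,6-glucan synthesis, differed by -1.83, KRE9 by -1.62 and BGL2 by -1.49. All 7 were lower in aft1aft2 in both experiments. They were selected by the test on these same experiments, so this shared sign is no separate evidence.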

How the results depend on the processing

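With a replicate block for the experiment, as reported, limma called 1 of the 7 genes in aft1 and 1 in aft1aft2, each against wt, and 0 between the mutants. Without the replicate block it called 3 (GSC2, SLT2 and WSC3), 2 (GSC2 and SLT2) and 1 (WSC3), in a fit that counts 1 residual degree of freedom too many by construction. With named spots alone it called 2 in aft1aft2 against wt. Leaving out each hybridisation in turn gave 0 to 1, 1 to 2 and 0 calls, with GSC2 in aft1 against wt between -3.57 and -3.19. In these fits with fewer hybridisations 4 to 233, 75 to 559 and 13 to 503 of all spots passed. The number of all spots called ran from 44 to 590, 72 to 940 and 52 to 950 over the full-data alternatives, beside 89, 270 and 172 as reported.

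Some changes near 0 turned sign. The values as deposited lack the centring, which shifts all spots of a column alike, and there the turned ones were WSC2 (0.11) and CWP1 (0.21) in aft1aft2 against aft1, MID2 (0.09), FKS1 (0.025) and FKS3 (0.26) in aft1 against wt, and MID2 (0.065), RLM1 (0.39), SLG1 (0.47) and SED1 (0.26) in aft1aft2 against wt. Scaling and quantile normalisation turned FKS3 in aft1 against wt to 0.006 and 0.009, and CWP1 in aft1aft2 against aft1 to 0.053 and 0.097. Leaving out a hybridisation or an experiment turned these, given as the lowest and highest value, and the cause was not tested. In aft1 against wt WSC2 ran from -0.13 to 0.55, MID2 from -0.48 to 0.13, FKS1 from -0.50 to 0.022, FKS3 from -0.35 to 0.34 and CIS3 from -0.13 to 0.18. In aft1aft2 against wt WSC2 ran from -0.18 to 0.31 and SLG1 from -0.09 to 0.007. In aft1aft2 against aft1 WSC2 ran from -0.41 to 0.12, FKS1 from -0.67 to 0.09, WSC4 from -0.47 to 0.54 and CWP1 from -0.19 to 0.11, while MID2 ran from -0.56 to 0 and did not turn. HSP150 in aft1aft2 against wt did not pass after scaling (adjusted p = 0.0660), nor PIR1 after quantile normalisation (0.0526). In the fit of each comparison's own columns 7 gene calls were lost: CWP1, UTR2 and IMO32 in aft1, HSP150, PIR1 and BAG7 in aft1aft2 against wt, and BGL2 between the mutants. Each strain has 2 hybridisations, and without spot intensities the signal over background is unknown.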
